A study of Homo sapiens with 6 samples.

Results

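The matrix metalloproteinases (MMPs), the ADAMTS proteases and the TIMPs were examined in RNA sequencing data of 6 libraries labelled SW480, a line from a human colorectal adenocarcinoma. The members were protein-coding genes of the deposited table named as an MMP, a TIMP, an ADAMTS or an ADAMTS-like gene. They came to 50 of the 58735 genes of the table, with 22 MMPs, 4 TIMPs, 19 ADAMTS genes and 5 ADAMTS-like genes. A further gene of the family is not reported here, and sums and shares of a family cover the members only. The labels give 3 libraries the genotype DDX39B overexpression and 3 the genotype WT, titled Con. All were grown in Leibovitz's L-15 medium with FBS and without added CO2. How DDX39B was overexpressed, and whether libraries of a group came from separate cultures, is not given in the sources used here, so p-values measure only the spread between these libraries.

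DDX39B, the RNA helicase gene named by the labels, went against them. It measured 15.02, 13.9 and 14.03 FPKM (reads scaled to gene length and library size) in the libraries labelled overexpression, against 39.3, 34.6 and 41.9 FPKM in the libraries labelled control. It was 2.70-fold lower in the libraries labelled overexpression, and the difference on the log2 scale was -1.37 with an SE of 0.079 (limma adjusted p = 6.93e-06). FPKM of a gene does not part a transgene from the native transcript. The groups are called OE-labelled (overexpression) and Con-labelled (control) here, and every direction follows the labels as given. Were the labels exchanged, every direction would be turned. Neither an exchange nor a difference between the cell stocks of the groups was tested. The whole table differed widely: 76.8% of the 13972 genes whose mean reached 1 FPKM passed the test. Library depth was 16963075 to 17463697 reads, worked out from FPKM and gene length. Of 11 markers of colorectal epithelium, 7 reached 1 FPKM in each OE-labelled library, and 3 or 4 did in the Con-labelled ones. Their summed level was 1972 to 1996 FPKM in the OE-labelled libraries and 358 to 430.3 FPKM in the Con-labelled libraries. Most of the Con-labelled sum came from KRT8 and KRT18, which averaged 179 and 202 FPKM there and 681 and 610 FPKM in the OE-labelled libraries. KRT19 averaged 500 FPKM in the OE-labelled and 0.251 FPKM in the Con-labelled libraries, and EPCAM 171 FPKM in the OE-labelled and 2.72 FPKM in the Con-labelled ones. CDX2, the intestinal homeobox gene, averaged 4.80 FPKM in the OE-labelled libraries and was at 0 in all 3 Con-labelled ones. KRT20, a keratin of differentiated intestinal epithelium, lay in the opposite direction, at 0.0610 FPKM in the OE-labelled and 0.865 FPKM in the Con-labelled libraries, and CDX1 was at 0 in all 6.

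MMPs are secreted or membrane-bound zinc proteases that cut collagens, laminins and other matrix proteins, and most are made as inactive precursors. ADAMTS proteases are secreted relatives with thrombospondin repeats that cut proteoglycans, process procollagens or trim other matrix and plasma proteins, and ADAMTS-like proteins keep the repeats but lack the protease domain. TIMPs are secreted inhibitors that bind the active site of MMPs, and TIMP3 also inhibits several ADAM and ADAMTS proteases. In colorectal tumours much of the MMP production is attributed to stromal cells.

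Few members were well expressed. Of the 50, 16 reached a mean of 1 FPKM over the 6 libraries and were tested, 28 had reads but stayed below it, and 6 had no read in any library. Among the 16, 5 were higher and 8 lower in the OE-labelled libraries and 3 did not pass an adjusted p of 0.05. Over all genes tested, 37.5% were higher and 39.3% lower. Groups did not overlap for 13 of the 16, and for 80.1% of all genes tested. The median log2 fold change of the 16 was -0.34, against -0.029 over all genes tested, and the median of its size was 1.26 against 0.62. Members that passed the filter only through the group where they were high had to differ, so these counts describe the family and lend no support. A mean of 1 FPKM in both groups was reached by 8 members: TIMP1, TIMP2, TIMP3, ADAMTS8, ADAMTS15, MMP15, MMP24 and ADAMTSL5. Just inside the filter were ADAMTSL2 (1.01 FPKM over all libraries) and ADAMTS13 (1.11 FPKM), and just outside it ADAMTS10 (0.965 FPKM) and MMP19 (0.951 FPKM).

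**Figure D1:**
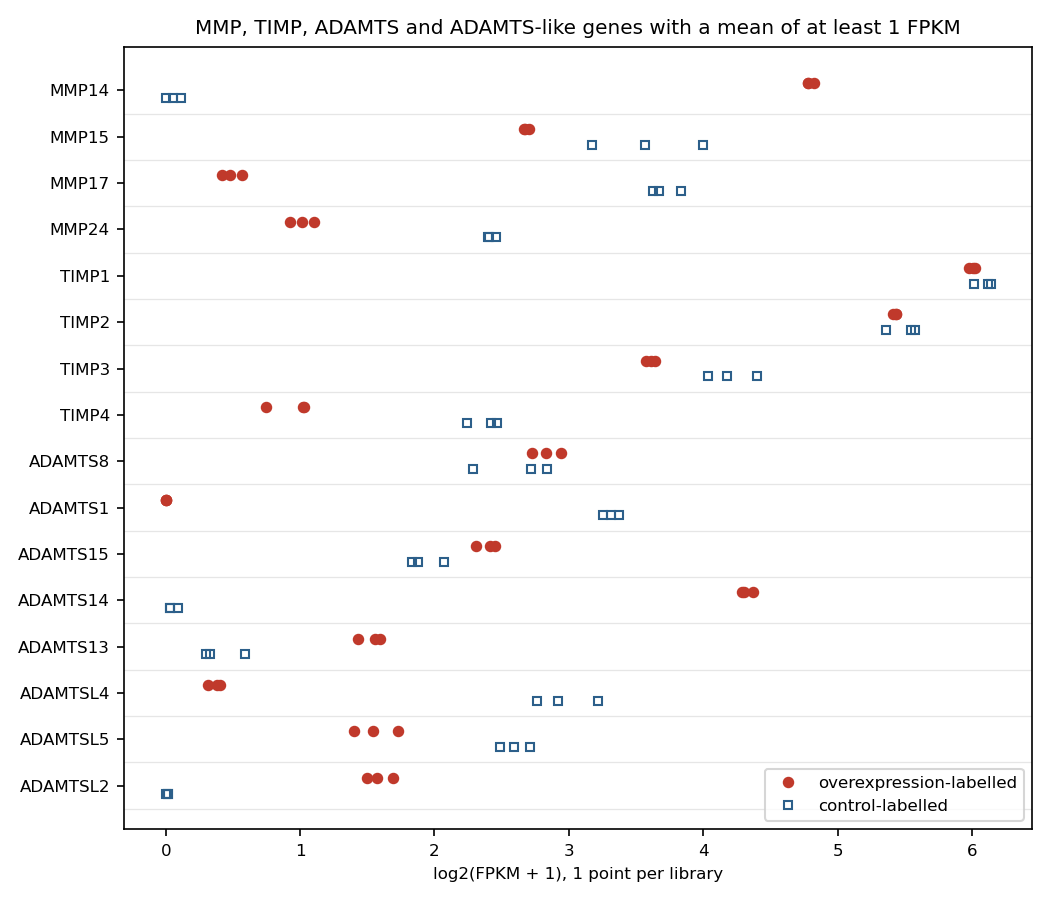
Levels of the 16 tested genes, 1 point per library, as log2(FPKM + 1), with filled circles for OE-labelled and open squares for Con-labelled libraries. MMP14 and ADAMTS14 were above 18 FPKM in each OE-labelled library and under 0.1 FPKM in each Con-labelled one, while TIMP1, TIMP2 and ADAMTS8 overlapped.

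Membrane-type MMPs, which are anchored at the cell surface, made up most of the summed level of the MMP members in both groups, but through different genes. They held 87.9%, 90.3% and 90.1% of the summed MMP FPKM in the OE-labelled libraries, against 91.3%, 91.3% and 91.3% in the Con-labelled libraries. MMP14 (MT1-MMP; ENSG00000157227, chromosome 14 from 22836557 to 22849027, GRCh38) is a collagenase of the cell surface that also activates the MMP2 precursor. It measured 26.4, 27.4 and 26.5 FPKM in the OE-labelled libraries, against 0, 0.0796 and 0.0402 FPKM in the Con-labelled libraries. The OE-labelled level rested on 6399 reads and the Con-labelled level on 9, none of them in replicate 1. The means were 26.8 ± 0.552 FPKM in the OE-labelled and 0.0399 ± 0.0398 FPKM in the Con-labelled libraries (SD, n = 3 each). They differed 670-fold, and the log2 fold change of FPKM + 1 was 4.74 with an SE of 0.059 (limma adjusted p = 1.48e-08). In bulk libraries such as these, fewer cells with a transcript and less transcript per cell cannot be told apart.

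The other 3 tested membrane-type genes were lower in the OE-labelled libraries, with no overlap. MMP17 (MT4-MMP; chromosome 12 from 131828393 to 131851783), which is held by a lipid anchor, measured 0.340, 0.484 and 0.392 FPKM in the OE-labelled libraries, against 13.3, 11.4 and 11.7 FPKM in the Con-labelled libraries. It was 29.9-fold lower (-3.22 with an SE of 0.081 on the log2 scale, limma adjusted p = 1.74e-07). MMP15 (MT2-MMP), a close relative of MMP14, measured 5.38, 5.52 and 5.35 FPKM in the OE-labelled libraries, against 10.9, 14.9 and 8.03 FPKM in the Con-labelled libraries. The OE-labelled libraries spread little, at 5.42 ± 0.0955 FPKM, and the Con-labelled ones widely, at 11.3 ± 3.47 FPKM (SD, n = 3 each). MMP15 was 2.08-fold lower (-0.90 with an SE of 0.19 on the log2 scale, limma adjusted p = 4.45e-03). MMP24 (MT5-MMP), best known from the nervous system, measured 1.14, 0.903 and 1.01 FPKM in the OE-labelled libraries, against 4.27, 4.48 and 4.29 FPKM in the Con-labelled libraries, and was 4.26-fold lower (limma adjusted p = 4.07e-06). MMP24OS, which overlaps it on the opposite strand, averaged 4.33 FPKM in the OE-labelled and 4.68 FPKM in the Con-labelled libraries. Whether the counting used strand is not given in the sources used here, so reads of such partners may be shared.

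The upstream sequences of MMP14 and MMP24, membrane-type genes of opposite direction, are shown to set their base composition side by side. Each holds the 250 bases before the RefSeq start site (GRCh38.p14, plus strand, chr14:22836335-22836584 and chr20:35226440-35226689), 5′ to 3′, with every CG dinucleotide in capitals.
MMP14: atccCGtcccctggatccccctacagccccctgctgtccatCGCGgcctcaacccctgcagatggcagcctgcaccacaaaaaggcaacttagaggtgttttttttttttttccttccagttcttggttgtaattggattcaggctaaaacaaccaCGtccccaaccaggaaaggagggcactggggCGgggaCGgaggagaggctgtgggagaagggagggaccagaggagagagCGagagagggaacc
MMP24: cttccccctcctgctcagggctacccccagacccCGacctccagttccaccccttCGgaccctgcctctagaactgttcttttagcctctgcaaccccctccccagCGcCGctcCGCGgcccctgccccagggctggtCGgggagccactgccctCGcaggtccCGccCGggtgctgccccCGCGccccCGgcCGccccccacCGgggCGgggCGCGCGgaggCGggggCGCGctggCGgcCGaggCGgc
The stretch of MMP14 holds 7 CG dinucleotides and that of MMP24 holds 25.

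The remaining membrane-type genes were low. MMP25 (MT6-MMP), known from neutrophils, had 87 reads in the OE-labelled and 61 in the Con-labelled libraries, with overlapping levels of 0.335 to 0.448 FPKM in the OE-labelled and 0.238 to 0.388 FPKM in the Con-labelled ones. MMP16 (MT3-MMP) had 6 reads in the OE-labelled libraries and 0 in the Con-labelled ones. Its groups overlapped, and it did not pass without a filter (limma adjusted p = 0.540). The summed MMP level was 38.02 ± 0.548 FPKM in the OE-labelled and 30.8 ± 3.81 FPKM in the Con-labelled libraries (SD, n = 3 each). MMP14 alone made up 70.4% of the mean level of the MMP members in the OE-labelled libraries. MMP17 (39.4%), MMP15 (36.6%) and MMP24 (14.1%) together held the corresponding place in the Con-labelled ones.

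**Figure D2:**
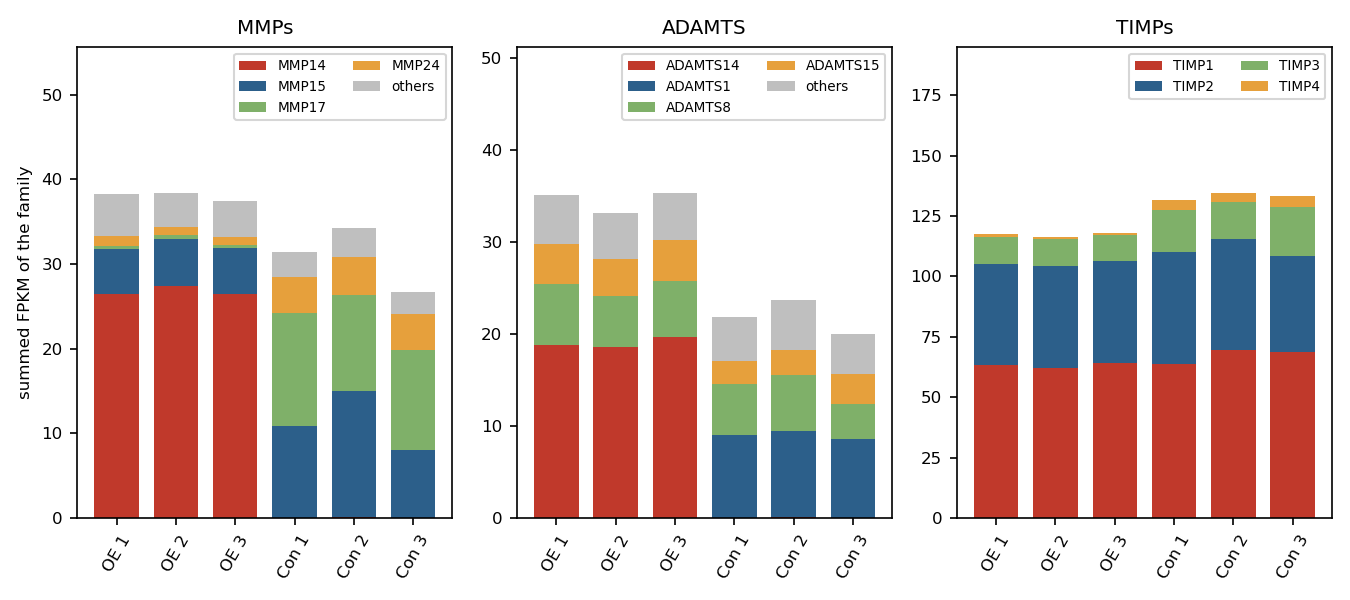
Summed FPKM of the MMP, ADAMTS and TIMP members in each library (OE for OE-labelled, Con for Con-labelled), stacked by gene, each panel with its own scale from 0. MMP14 and ADAMTS14 hold the largest part of their families in the OE bars and do not show in the Con bars, whereas TIMP1 and TIMP2 hold most of every TIMP bar.

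The gelatinases, which cut denatured collagen and basement membrane collagen, were both below the filter. MMP2 (gelatinase A) had 80, 58 and 54 reads in the OE-labelled libraries, against 0, 2 and 0 in the Con-labelled libraries. That is 0.728 ± 0.167 FPKM in the OE-labelled and 0.00801 ± 0.0139 FPKM in the Con-labelled libraries (SD, n = 3 each), a 90.9-fold difference with an exact 95% counting interval of 24.8 to 756. MMP9 (gelatinase B) overlapped between groups, with 0.558, 0.379 and 0.431 FPKM in the OE-labelled and 0.735, 0.938 and 0.333 FPKM in the Con-labelled libraries.

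Among the stromelysin-like and other secreted MMPs, 3 members were scarce but different in level. MMP11 (stromelysin-3), known from tumour stroma, measured 1.17, 1.14 and 0.865 FPKM in the OE-labelled libraries, against 0.107, 0.103 and 0.0577 FPKM in the Con-labelled libraries, an 11.9-fold ratio of means. CHCHD10, which overlaps MMP11 on the opposite strand, was at 15.3 FPKM in the OE-labelled and 71.0 FPKM in the Con-labelled libraries. MMP19 had 360 reads in the OE-labelled and 108 in the Con-labelled libraries, a ratio of 3.12 in mean FPKM. The overlapping pseudogene TMEM198B, on the opposite strand, was at 6.36 FPKM in the OE-labelled and 1.28 FPKM in the Con-labelled libraries, and its part in the MMP19 reads was not tested. MMP28 (epilysin), a protease of epithelia, was lower, with 33 reads in the OE-labelled and 180 in the Con-labelled libraries, a 5.86-fold ratio. TAF15, which overlaps it on the opposite strand, averaged 48.6 FPKM in the OE-labelled and 30.1 FPKM in the Con-labelled libraries. MMP23B had 3 reads in the OE-labelled and 19 in the Con-labelled libraries and has a near-identical pseudogene, MMP23A, with which it may share reads.

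The secreted MMPs of 1 cluster had few reads. A run of 8 members on chromosome 11, from 102576835 to 102955734 (11q22), holds the collagenases MMP1, MMP8 and MMP13, the stromelysins MMP3 and MMP10, the macrophage elastase MMP12, the enamel protease MMP20, and MMP27. Together they had 11 reads in the OE-labelled libraries and 3 in the Con-labelled ones. Of the 11, 8 were reads of MMP20, and 7 of those lay in OE-labelled replicate 3. MMP3, MMP8 and MMP27 had no read in any library, and neither had MMP21, MMP26 and ADAMTSL3 elsewhere. In a gene of 1 kilobase, 3 reads corresponded to 0.166 to 0.184 FPKM, and levels under that could not be told from 0 at this depth. For contrast with MMP24 above, the same 250 bases of MMP8 and MMP10 from this run follow (GRCh38.p14, minus strand, chr11:102724955-102725204 and chr11:102780629-102780878), again with CG in capitals.
MMP8: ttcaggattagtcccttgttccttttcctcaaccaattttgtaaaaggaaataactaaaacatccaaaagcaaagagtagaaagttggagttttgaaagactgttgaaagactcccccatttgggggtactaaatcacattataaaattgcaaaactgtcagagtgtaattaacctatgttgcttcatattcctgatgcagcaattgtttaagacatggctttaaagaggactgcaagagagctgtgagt
MMP10: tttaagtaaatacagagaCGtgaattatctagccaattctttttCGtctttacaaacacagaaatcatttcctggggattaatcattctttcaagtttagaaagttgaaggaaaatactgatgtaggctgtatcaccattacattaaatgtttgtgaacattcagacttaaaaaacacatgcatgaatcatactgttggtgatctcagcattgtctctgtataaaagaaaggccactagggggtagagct
The stretch of MMP8 holds no CG and that of MMP10 holds 2; the RefSeq start of MMP8 lies 2096 bases from the start of the gene in the table.

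TIMP1 and TIMP2 were the most abundant members in both groups by FPKM, and neither passed the test. TIMP1, an inhibitor known to be raised in colorectal tumours, measured 63.4, 62.0 and 64.0 FPKM in the OE-labelled libraries, against 63.6, 69.5 and 68.5 FPKM in the Con-labelled libraries. Its log2 fold change was -0.088 (95% interval -0.21 to 0.036, limma adjusted p = 0.161). TIMP2, which inhibits MMP2 and also takes part with MMP14 in its activation, measured 41.5, 42.2 and 42.3 FPKM in the OE-labelled libraries, against 46.6, 45.8 and 40.05 FPKM in the Con-labelled libraries. Its log2 fold change was -0.068 (95% interval -0.23 to 0.093, limma adjusted p = 0.383). Without Con-labelled replicate 3 it passed, at -0.14 (limma adjusted p = 0.0151). Both signs depended on the scaling: with each library scaled to its own read total, TIMP1 was at 0.019 and TIMP2 at 0.037, neither past the threshold.

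TIMP3 and TIMP4 were lower in the OE-labelled libraries. TIMP3, which binds to the matrix and has the broadest range of targets, measured 11.5, 11.2 and 10.9 FPKM in the OE-labelled libraries, against 17.1, 15.4 and 20.06 FPKM in the Con-labelled libraries. It was 1.56-fold lower (-0.59 with an SE of 0.095 on the log2 scale, limma adjusted p = 1.11e-03). TIMP4, the least widely expressed of the family, measured 1.03, 1.04 and 0.679 FPKM in the OE-labelled libraries, against 4.35, 3.73 and 4.53 FPKM in the Con-labelled libraries. It was 4.59-fold lower (-1.44 with an SE of 0.11 on the log2 scale, limma adjusted p = 2.46e-05), and neither gene's groups overlapped. TIMP1, TIMP3 and TIMP4 each lie within a synapsin gene on the opposite strand. SYN1, SYN3 and SYN2 averaged 0.293, 0.0240 and 0.0330 FPKM in the OE-labelled libraries, against 0.0317, 0.0770 and 0.155 FPKM in the Con-labelled libraries. The summed TIMP level was 117 ± 0.776 FPKM in the OE-labelled and 133 ± 1.37 FPKM in the Con-labelled libraries (SD, n = 3 each).

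**Figure D3:**
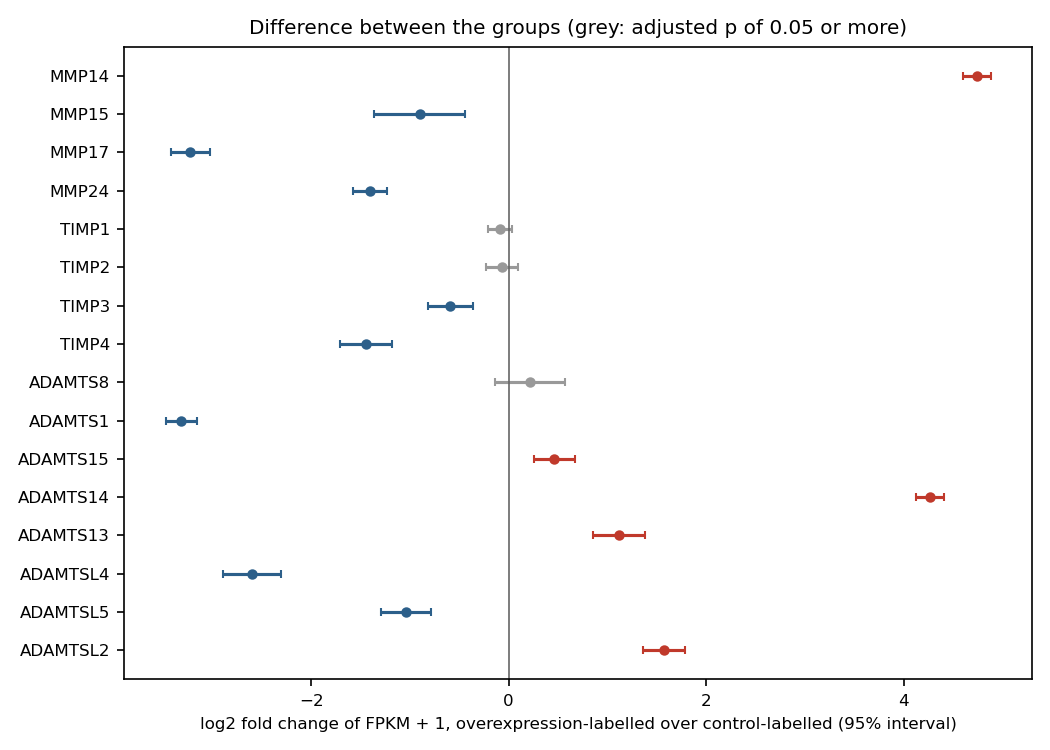
Log2 fold change of FPKM + 1, OE-labelled over Con-labelled, for the 16 tested genes, with 95% intervals from limma. Red points were higher, blue points lower, and grey points (TIMP1, TIMP2 and ADAMTS8) did not pass an adjusted p of 0.05; MMP14 stands at 4.74 and ADAMTS1 at -3.31.

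Among ADAMTS proteases the leading gene also differed between groups. ADAMTS14 (ENSG00000138316, chromosome 10 from 70672803 to 70762441) is a procollagen N-propeptidase that trims fibrillar procollagens. It measured 18.8, 18.6 and 19.7 FPKM in the OE-labelled libraries, against 0.0233, 0.0675 and 0.0227 FPKM in the Con-labelled libraries. The groups stood far apart, with 5364 reads in the OE-labelled and 10 in the Con-labelled libraries. The ratio of means was 503 and the log2 fold change 4.27 with an SE of 0.060 (limma adjusted p = 2.03e-08). The other propeptidases were scarce: ADAMTS2 had 2 reads in the OE-labelled and 8 in the Con-labelled libraries, and ADAMTS3 had 0 in the OE-labelled and 35 in the Con-labelled ones, which made it at least 12.6-fold lower.

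ADAMTS1 (chromosome 21 from 26835747 to 26845409), a protease of aggrecan and versican, led in the Con-labelled libraries and had no read in the others. It had 0 reads in all 3 OE-labelled libraries, against 1031, 1114 and 1010 reads (8.96, 9.35 and 8.55 FPKM) in the Con-labelled libraries. Taking 3 reads in the whole OE-labelled group as the limit of detection, it was at least 1128-fold lower (limma adjusted p = 6.95e-08). ADAMTS5, the main aggrecanase of cartilage, lies 72503 bases from ADAMTS1 on chromosome 21 and showed the same pattern at a lower level. It had 0 reads in the OE-labelled libraries, against 88, 115 and 63 reads in the Con-labelled libraries, and was at least 95.1-fold lower. Among other proteoglycanases, ADAMTS4 had 4 reads in the OE-labelled and 45 in the Con-labelled libraries, and ADAMTS9 had 26 in the OE-labelled and 10 in the Con-labelled ones. ADAMTS20 had 0 reads in the OE-labelled and 31 in the Con-labelled libraries.

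ADAMTS8 and ADAMTS15, neighbours on chromosome 11 that are 19981 bases apart and run in opposite directions, were expressed in both groups. ADAMTS8 measured 6.70, 5.62 and 6.11 FPKM in the OE-labelled libraries, against 5.59, 6.16 and 3.88 FPKM in the Con-labelled libraries. The groups overlapped, and the log2 fold change was 0.22 (95% interval -0.14 to 0.58, limma adjusted p = 0.219). ADAMTS15, a versican-cutting protease found mutated in colorectal tumours, measured 4.32, 3.95 and 4.47 FPKM in the OE-labelled libraries, against 2.56, 2.67 and 3.20 FPKM in the Con-labelled libraries. It was 1.51-fold higher without overlap (0.46 with an SE of 0.086 on the log2 scale, limma adjusted p = 2.29e-03).

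ADAMTS13, the plasma protease of von Willebrand factor, measured 2.03, 1.94 and 1.70 FPKM in the OE-labelled libraries, against 0.258, 0.509 and 0.230 FPKM in the Con-labelled libraries. It was 5.68-fold higher (1.12 with an SE of 0.11 on the log2 scale, limma adjusted p = 9.24e-05). REXO4, which overlaps it on the opposite strand, averaged 23.0 FPKM in the OE-labelled and 33.8 FPKM in the Con-labelled libraries. ADAMTS17 and ADAMTS19, both linked to inherited disease of connective tissue or heart valves, were seen on one side only. ADAMTS17 had 190, 167 and 184 reads in the OE-labelled libraries and 0 in each Con-labelled library, and was at least 168-fold higher. ADAMTS19 had 66, 75 and 73 reads in the OE-labelled libraries and 0 in each Con-labelled library, and was at least 66.4-fold higher. Its antisense partner ADAMTS19-AS1 had 25 reads in the OE-labelled and 0 in the Con-labelled libraries.

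ADAMTS10 and ADAMTS16 ran the other way. ADAMTS10, which acts in fibrillin microfibrils, measured 0.159, 0.116 and 0.157 FPKM in the OE-labelled libraries, against 1.71, 2.10 and 1.55 FPKM in the Con-labelled libraries, a 12.4-fold ratio of means. ADAMTS16 measured 0.193, 0.264 and 0.248 FPKM in the OE-labelled libraries, against 0.848, 0.657 and 1.27 FPKM in the Con-labelled libraries, a 3.94-fold ratio. ADAMTS7, a protease of the cartilage protein COMP, overlapped, at 0.691 ± 0.0596 FPKM in the OE-labelled and 0.668 ± 0.254 FPKM in the Con-labelled libraries (SD, n = 3 each). It has several pseudogenes and may share reads with them. ADAMTS6 had 70 reads in the OE-labelled and 113 in the Con-labelled libraries, and ADAMTS12 and ADAMTS18 had 3 reads each in all. The summed ADAMTS level was 34.5 ± 1.22 FPKM in the OE-labelled and 21.9 ± 1.85 FPKM in the Con-labelled libraries (SD, n = 3 each), and ADAMTS14 held 55.04% of the OE-labelled mean and ADAMTS1 40.9% of the Con-labelled mean.

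Of the ADAMTS-like genes, whose products bind fibrillin and other matrix proteins, 1 was higher and 2 were lower. ADAMTSL4, which is needed for the anchoring of the eye lens, measured 0.326, 0.241 and 0.305 FPKM in the OE-labelled libraries, against 6.56, 8.28 and 5.79 FPKM in the Con-labelled libraries. It was 23.7-fold lower (-2.60 with an SE of 0.12 on the log2 scale, limma adjusted p = 2.63e-06). ADAMTSL5 measured 1.64, 2.32 and 1.91 FPKM in the OE-labelled libraries, against 4.60, 5.54 and 5.03 FPKM in the Con-labelled libraries, and was 2.58-fold lower (limma adjusted p = 1.15e-04). ADAMTSL2, which binds latent TGF-beta binding protein and lies 72762 bases from ADAMTS13 on chromosome 9, was higher like that neighbour. It had 163, 188 and 152 reads (1.98, 2.23 and 1.82 FPKM) in the OE-labelled libraries, against 1, 1 and 0 reads in the Con-labelled libraries. The ratio of mean FPKM was 233, with an exact 95% counting interval of 64.3 to 1933 (1.57 with an SE of 0.087 on the log2 scale, limma adjusted p = 5.61e-06). ADAMTSL1 had 1 read in the OE-labelled and 10 in the Con-labelled libraries.

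The promoters of ADAMTS14 and ADAMTSL4, which differed strongly in opposite directions, are shown as the counterparts of MMP14 and MMP24 outside the MMP family. The 250 bases before the RefSeq start site (GRCh38.p14, plus strand, chr10:70672256-70672505 and chr1:150549158-150549407) are given with CG in capitals.
ADAMTS14: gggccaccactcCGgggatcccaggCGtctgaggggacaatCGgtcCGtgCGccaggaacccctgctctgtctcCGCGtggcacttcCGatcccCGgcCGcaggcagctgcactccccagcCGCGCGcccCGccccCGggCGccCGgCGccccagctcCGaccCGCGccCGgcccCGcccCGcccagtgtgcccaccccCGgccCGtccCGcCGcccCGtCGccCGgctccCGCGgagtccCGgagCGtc
ADAMTSL4: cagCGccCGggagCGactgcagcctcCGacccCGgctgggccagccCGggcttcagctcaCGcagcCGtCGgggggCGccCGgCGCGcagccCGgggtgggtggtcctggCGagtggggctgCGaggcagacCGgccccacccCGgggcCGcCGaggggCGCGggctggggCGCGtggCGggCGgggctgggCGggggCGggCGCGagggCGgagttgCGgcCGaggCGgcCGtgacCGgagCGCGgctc
They hold 35 and 38 CG dinucleotides.

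**Figure D4:**
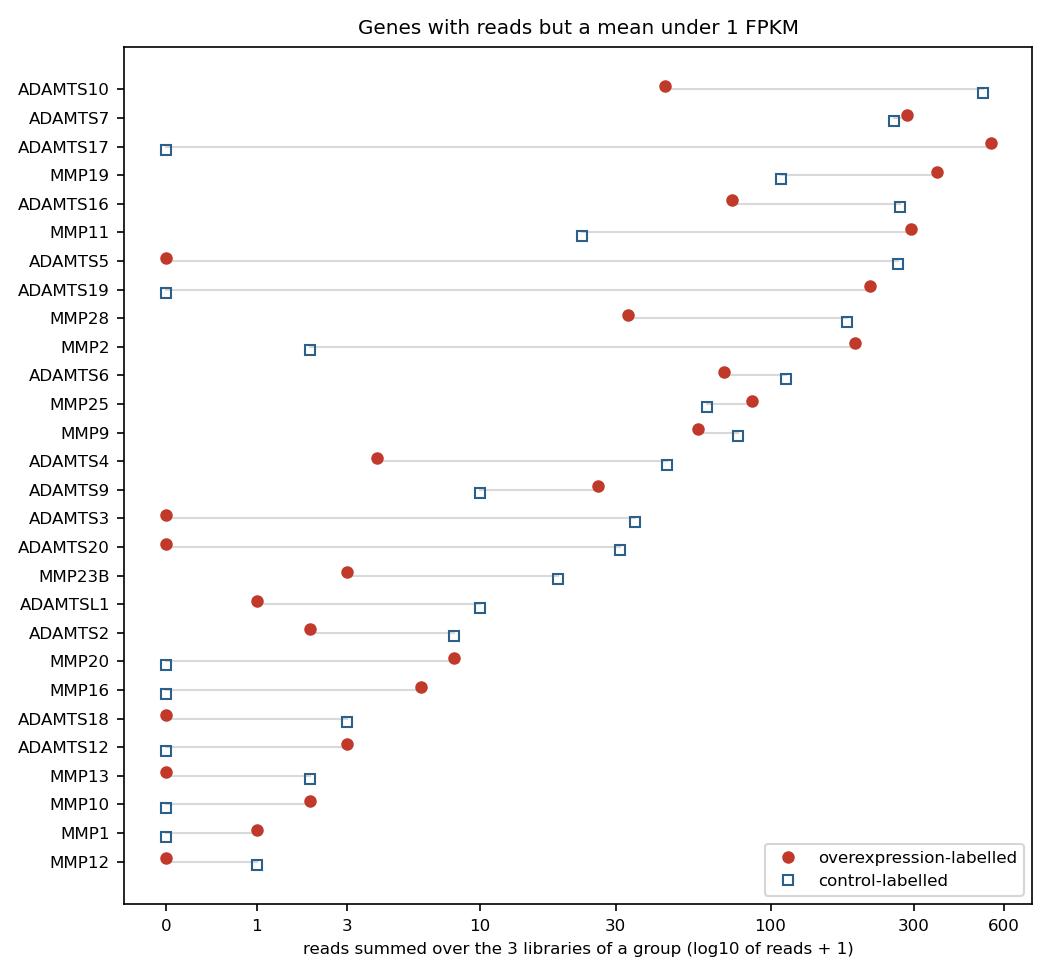
Reads summed over the 3 libraries of a group, on a log10 scale of reads + 1, for the 28 genes with reads but a mean under 1 FPKM, with filled circles for OE-labelled and open squares for Con-labelled libraries. ADAMTS17 and ADAMTS19 stand at 0 in the Con-labelled libraries and ADAMTS5, ADAMTS3 and ADAMTS20 at 0 in the OE-labelled ones.

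When the same test was run with no filter on low values, 5 of these 28 low members were higher and 7 lower. Over the 33913 genes then tested, 24.0% were higher and 20.5% lower. That set includes the genes above the filter, so its shares are not those of low genes alone and cannot be set directly against these 28. The 5 higher members were MMP2, MMP11, MMP19, ADAMTS17 and ADAMTS19, with limma adjusted p-values of 5.06e-05 (ADAMTS17) to 5.91e-03 (MMP19). The 7 lower members were MMP28, ADAMTS3, ADAMTS4, ADAMTS5, ADAMTS10, ADAMTS16 and ADAMTS20, with limma adjusted p-values of 1.69e-04 (ADAMTS10) to 0.0116 (ADAMTS4). MMP9 did not pass (limma adjusted p = 0.404), nor did ADAMTS6 (limma adjusted p = 0.0570), ADAMTS7 (0.864) or MMP25 (0.286). Of all 50 members, 7 had reads only in the OE-labelled libraries and 7 only in the Con-labelled ones. Among the former, MMP1, MMP10, ADAMTS12, MMP16 and MMP20 rested on 1 to 8 reads. Among the latter, MMP12, MMP13 and ADAMTS18 rested on 1 to 3 reads. The share of all genes with reads in a single group was not worked out, so these counts show nothing particular to the members. In all 6 libraries together, 16 members had fewer than 20 reads.

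Promoter windows of RefSeq (250 bases before to 50 after the start site) were found for 31 of the 50 members. In 25 the RefSeq start lay within 500 bases of the gene's start in the table; those of ADAMTSL5, MMP8, ADAMTSL2, MMP11, ADAMTS13 and ADAMTSL1 lay 585 to 567590 bases off. The AP-1 element, TGAGTCA or its reverse complement TGACTCA, the response element described in many MMP promoters, was searched on both strands. It was in none of the 31 windows, against 4.95% of 35116 windows of all genes. At that share few of 31 windows would hold it, so its absence does not set the members apart. Only exact matches were counted. Windows were at hand for 11 of the 22 MMPs; MMP1, MMP2, MMP3, MMP9, MMP12, MMP13, MMP16, MMP17, MMP19, MMP25 and MMP28 were not searched. The median count of CG dinucleotides per window was 26 in the members and 14 over all genes. Members with 20 reads or more in all libraries had a median of 28 (20 members) and those with fewer a median of 8 (11 members). Over the 25 windows near the gene's start, the median was 28.5 with 20 reads or more (16 members) and 10 with fewer (9 members). The 4 members of the 11q22 run with a window, MMP8, MMP10, MMP20 and MMP27, had 2 or 3 each. High CG counts also stood beside few reads: ADAMTSL3, with no read, had 48, and ADAMTS2, with 10 reads, had 47. MMP14 had 10. These counts are a description, the limit of 20 reads was set after the values were seen, and longer genes collect more reads at the same level.

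**Figure D5:**
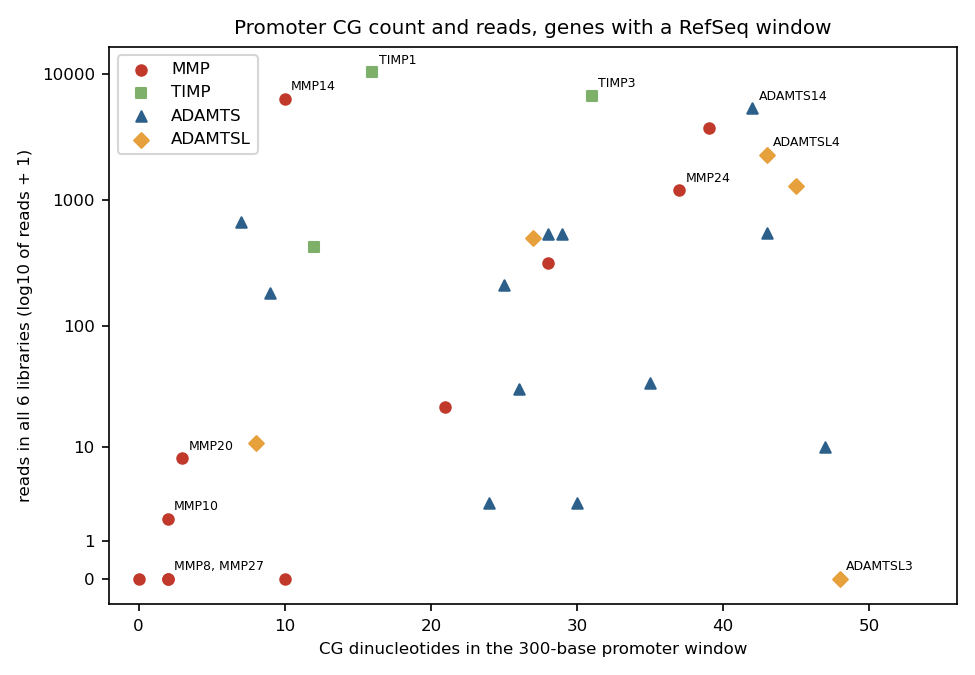
CG dinucleotides in the 300-base promoter window against reads in all 6 libraries (log10 of reads + 1), 1 point per gene with a RefSeq window. The 11q22 genes MMP8, MMP10, MMP20 and MMP27 sit at the lower left with 2 or 3 CG each, while MMP14 has 10 and ADAMTSL3, at the lower right, has 48 and no read.

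Genes that act with these proteases were described by 3 further lists, in the same limma test. Over all genes tested, 37.5% were higher and 39.3% lower. Listed genes that passed the filter only through the group where they were high also had to differ, so these counts are a description. Of 17 tested genes (of 21 listed) that activate MMPs or control them at the cell surface, 9 were higher and 6 lower in the OE-labelled libraries (median log2 fold change 0.31). PCSK5, a proprotein convertase, was 186-fold higher, at 3.53 ± 0.292 FPKM in the OE-labelled and 0.0190 ± 0.0170 FPKM in the Con-labelled libraries (SD, n = 3 each). TFPI2, a serine protease inhibitor of the matrix, had no read in the OE-labelled libraries and was at least 290-fold lower, and LRP1, an endocytic receptor that clears MMPs and TIMPs, was 7.75-fold lower. Among 8 tested (of 17 listed) ADAM and astacin proteases, 2 were higher and 5 lower (median -0.36). ADAM19 measured 19.3 ± 0.720 FPKM in the OE-labelled and 0.0129 ± 0.0162 FPKM in the Con-labelled libraries (SD, n = 3 each; 1499-fold), and ADAM22, which lacks protease activity, was 3.77-fold higher. TLL1 was at least 724-fold lower and BMP1, its relative that removes procollagen C-propeptides, 2.83-fold lower.

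Matrix proteins cut by MMPs or ADAMTS proteases were 5 higher and 11 lower among 17 tested (of 27 listed), beside 37.5% higher and 39.3% lower over all genes tested. Their median log2 fold change was -1.37, against -0.029 over all genes tested. COL4A1, a basement membrane collagen, was 122-fold lower, at 0.133 ± 0.00600 FPKM in the OE-labelled and 16.2 ± 2.49 FPKM in the Con-labelled libraries (SD, n = 3 each). FBN2, a fibrillin, was 1696-fold lower and LTBP1, which holds latent TGF-beta in the matrix, 41.2-fold lower. The matrix genes named here were all lower and do not stand for the 5 that were higher.

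Stromal cells are a known source of MMPs and TIMPs, so markers of other cell types are given beside these results. The 9 fibroblast markers summed to 1.54 to 1.67 FPKM in the OE-labelled and 4.42 to 8.30 FPKM in the Con-labelled libraries, mostly from COL1A1 (1.21 FPKM in the OE-labelled and 4.85 FPKM in the Con-labelled ones). PDGFRA was at 0 in all 6 libraries, and no library held more than 0.368 FPKM of COL1A2, DCN or LUM. LUM lay in the opposite direction to COL1A1, with 29 reads in the OE-labelled libraries (20 of them in replicate 2) and 1 in the Con-labelled ones. DCN had 0 reads in the OE-labelled and 80 in the Con-labelled libraries, and COL1A2 had 3 in each group. PDGFRB measured 0.159, 0.209 and 0.235 FPKM in the OE-labelled libraries, against 1.53, 1.86 and 0.854 FPKM in the Con-labelled libraries. COL3A1, FAP and THY1 had no reads in the OE-labelled libraries and 28, 11 and 20 reads in the Con-labelled ones. The 8 leukocyte markers summed to 0.976 to 1.19 FPKM in the OE-labelled and 0.159 to 0.475 FPKM in the Con-labelled libraries, with CD3D and MS4A1 at 0 throughout. LYZ had 48 reads in the OE-labelled and 0 in the Con-labelled libraries, CD3E 18 and 0, and ITGAM 27 and 1. PTPRC lay in the opposite direction, with 0 and 5 reads, and CD14 and CD68 overlapped between groups. The 6 endothelial markers summed to 1.06 to 1.48 FPKM in the OE-labelled and 36.0 to 50.6 FPKM in the Con-labelled libraries, nearly all of the Con-labelled sum from ESAM, while KDR was at 0. VWF averaged 0.586 FPKM in the OE-labelled and 0.0462 FPKM in the Con-labelled libraries, and CDH5 had 0 reads in the OE-labelled and 42 in the Con-labelled ones. The part of these markers in the differences was not tested.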

How the data were processed

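RNA sequencing of 6 libraries, 3 titled DDX39B and 3 titled Con, was analysed from a single table of FPKM values that the authors deposited beside each gene's length; its name and values gave the unit. The submitters' processing notes name mm10 (mouse) as the build. The 58735 gene identifiers, symbols and positions matched human GENCODE release 29 (GRCh38), for the 50 members too. Aligner, counter and strand use: not given in the sources used here. FPKM times gene length, divided by the smallest such product of the library, gave whole reads within 0.001 read for 100% of values above 0. These reads served for depth, bounds and intervals, which cover counting error only. The authors' denominator was 1.04 to 1.05 times the reads in the OE-labelled and 0.958 to 0.995 times in the Con-labelled libraries, so their values carry a further scaling.

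Groups were compared by limma 3.58.1 in R 4.3.3 (moderated, two-sided, variance trend). It was run on log2(FPKM + 1) for genes whose overall mean reached 1 FPKM, and the design held the group alone. Both groups shared a single variance per gene, although their spread differed. The median SD of a gene on this scale was 0.059 in the OE-labelled and 0.128 in the Con-labelled libraries. P-values were adjusted by Benjamini-Hochberg over all 13972 genes, with a threshold of 0.05. This scale understates changes of low genes. Folds are ratios of mean FPKM, or bounds against 3 reads over a group at 0. The steps were also run on simulated reads with few changed genes and the same spread in both groups. That setting is unlike these data, so no support is drawn from it. No 2 libraries held the same values. Members and lists were chosen with earlier results of these data known. All members are named, with up to 4 genes past the threshold per further list; marker and overlapping genes were added. One gene of the family and some genes of the further lists are not reported here. The 15 alternatives changed the pseudocount (0.1), filter, scaling, variance model, block or the libraries used.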

Additional observations from a re-analysis of the deposited data

How the results depend on the processing

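The 16 tested members were recomputed under up to 15 alternatives, and a value was had in 226 cases, fewer where a member fell below a filter. The direction of a called member and its side of the threshold held in all of them, and the exception among members not called was TIMP2, past it without Con-labelled replicate 3. TIMP1 and TIMP2, not called, changed sign under other scalings: TIMP1 was at 0.019 with voom on the reads and TIMP2 at 0.060 after quantile normalization. The median of all genes was -0.029 as deposited, 0.062 with each library scaled to its read total and 0.075 with voom. DDX39B ran from -1.44 to -1.25 on the log2 scale and passed each time. With voom, MMP14 reached 9.89 and ADAMTS14 9.03.

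Counts moved with the filter, as fewer or more genes were tested. At a mean of 5 FPKM, 2 members were higher and 3 lower, 6218 of all genes were called, regulators of MMPs were 4 higher and 3 lower, ADAM and astacin proteases 1 higher, and matrix substrates 3 higher and 7 lower. With no filter, 10 members were higher and 15 lower, and 4 ADAM and astacin proteases higher, beside 44.5% of the 33913 genes then tested. As TPM, which lets more genes past the filter, 10 members were higher and 12 lower, and 13276 of all genes were called. Leaving out each library in turn gave 3 to 6 members higher and 8 to 9 lower, with 9794 to 11144 of all genes called. It was 3 higher whenever 1 OE-labelled library (replicate 1, 2 or 3) was left out, as ADAMTS13 and ADAMTSL2 then fell below the filter. The same replicate numbers occur in both groups, but same-numbered libraries did not deviate together (correlations -0.0059, -0.022 and 0.0075). With the replicate block, 5 members were higher and 8 lower, as without it, and 10506 of the same 13972 genes were called. Except with no filter, shares of all genes by direction were not worked out for the alternatives. The counts of members and lists there are a description only. Genes under 20 reads are limited by depth.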
